A study of Mus musculus with 4 samples.

Results

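Phosphocreatine handling and oxygen binding in the heart were followed through 8 genes: the creatine kinases Ckm, Ckmt2 and Ckb, the creatine transporter Slc6a8, the creatine synthesis enzymes Gatm and Gamt, the oxygen carrier myoglobin (Mb) and the adenylate kinase Ak1. They were taken by gene symbol, and all 8 were found among the 17550 genes with a read in any of 4 libraries. The libraries were made from total RNA of left ventricle of 8-week-old C57BL/6 mice, 3 days after an induced myocardial infarction. There is 1 library for each of 4 groups: wild-type non-infarcted ventricle, wild-type infarcted ventricle, non-infarcted ventricle labelled Neil3-/- and infarcted ventricle labelled Neil3-/-. Neil3 encodes a DNA glycosylase that removes oxidised bases. All 4 groups come from mice that had the infarction, so the non-infarcted tissue is not that of unoperated hearts, and it is not stated if a library holds RNA of 1 mouse or of a pool. No comparison has a replicate check, and every interval given is a 95% interval for counting error only.

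Creatine kinase moves a phosphate group between ATP and creatine, and phosphocreatine carries and buffers that phosphate between the mitochondria and the sites where heart muscle uses ATP. The sarcomeric mitochondrial enzyme (Ckmt2) charges creatine where ATP leaves the mitochondrion, and the muscle-type (Ckm) and brain-type (Ckb) enzymes work in the cytosol. Heart muscle takes up creatine from blood through Slc6a8, while Gatm and Gamt carry out its synthesis, mainly in kidney and liver. Myoglobin stores oxygen and eases its diffusion in muscle cells, and adenylate kinase makes ATP and AMP out of ADP.

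The libraries held 14.3 M to 18.2 M assigned reads (M, the mega prefix). Levels are given as RPKM, reads scaled to the length of the gene model and to the library's assigned reads, which allows genes to be compared per length. Neil3 itself was at 1.83 and 3.95 RPKM in the wild-type non-infarcted and infarcted libraries and at 12.0 and 18.5 RPKM in those labelled Neil3-/-. It was thus higher in the libraries labelled knockout, and as the deleted portion is not stated, this value does not check the genotype. Defining markers of heart muscle were abundant: the 12 contractile genes of cardiomyocytes, such as Myh6 and Tnnt2, summed to 37719 and 35897 RPKM in the wild-type and labelled Neil3-/- non-infarcted libraries, and to 18906 and 12471 RPKM in the infarcted ones.

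The 3 creatine kinase genes measured above 1 RPKM are related in sequence, which bears on how their reads are assigned. Over the aligned coding sequence, Ckm and Ckb were identical at 76.4% of bases, Ckm and Ckmt2 at 68.2%, and Ckb and Ckmt2 at 67.3% (GENCODE transcript models for GRCm38). The longest stretch shared by each pair is shown because a read from such a stretch may match both genes. Whole transcript models were searched, untranslated regions included, and each run found lies in the coding sequence of both genes. Shorter shared runs and matches with mismatches were not compared. The lines give the longest identical run between coding sequences, 5′ to 3′, all in lower case since every base is shared.
Ckm and Ckb, from coding base 88 of both: atggccaaggtgctgacccc
Ckm and Ckmt2: aagggaggcaatatgaa
Ckb and Ckmt2: gagttcatgtggaat
Ckmt2 and Ckmt1: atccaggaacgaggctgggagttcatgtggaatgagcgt
The runs are 20, 17 and 15 bases long for the 3 pairs among Ckm, Ckb and Ckmt2. Ckmt2 and Ckmt1, the ubiquitous mitochondrial creatine kinase, share 39 bases, and read length is not given in the sources used here.

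Promoters of the 3 kinases are shown because their levels parted in the infarct: Ckm and Ckmt2 were lower there and Ckb was not. Each line holds the 250 bases before the transcription start on the gene's own strand (RefSeq, GRCm38.p6), 5′ to 3′, with motif matches in capitals.
Ckm, chr7:19410844-19411093, plus strand: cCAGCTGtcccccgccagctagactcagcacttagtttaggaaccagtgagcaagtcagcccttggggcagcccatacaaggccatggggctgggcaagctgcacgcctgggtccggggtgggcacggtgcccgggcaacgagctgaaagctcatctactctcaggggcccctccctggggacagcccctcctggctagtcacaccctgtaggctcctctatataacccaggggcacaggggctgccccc
Ckmt2, chr13:91876886-91877135, minus strand: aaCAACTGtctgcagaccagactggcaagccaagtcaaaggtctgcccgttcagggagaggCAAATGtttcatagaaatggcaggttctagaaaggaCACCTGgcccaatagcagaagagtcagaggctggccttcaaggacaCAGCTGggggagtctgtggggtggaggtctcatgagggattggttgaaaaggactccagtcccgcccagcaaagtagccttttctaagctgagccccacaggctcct
Ckb, chr12:111672339-111672588, minus strand: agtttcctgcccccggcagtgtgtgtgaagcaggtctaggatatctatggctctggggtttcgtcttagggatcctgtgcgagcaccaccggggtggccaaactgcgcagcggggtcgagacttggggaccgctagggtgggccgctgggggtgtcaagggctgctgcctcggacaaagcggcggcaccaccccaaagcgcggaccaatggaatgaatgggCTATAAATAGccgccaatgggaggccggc
The motifs searched on both strands were the E-box CANNTG, bound by bHLH factors such as MyoD, the TATA box TATAAA, the ERR element AAGGTCA, the GATA element AGATAA and the MEF2 element. Ckm held 1 E-box, at bases -249 to -244 from the start, and Ckmt2 held 4, the nearest at bases -107 to -102. Ckb held no E-box in this window but the string TATAAA at bases -28 to -23, which lies inside a MEF2 match at bases -29 to -20. Only this exact string was searched as a TATA box, so the letters tatataa in the Ckm window were not marked. Over all 32851 promoter windows of the same length, an E-box was present in 66.2%, TATAAA in 12.4%, AAGGTCA in 4.08%, AGATAA in 9.99% and the MEF2 element in 2.92%. The RefSeq table held promoters for 7 of the 8 genes, the exception being Slc6a8. Of the other members, Gatm, Mb and Ak1 held E-boxes, and AAGGTCA occurred in 1 of the 4 Ak1 windows. These matches describe letters in a window, and nothing about binding was measured.

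In infarcted ventricle, the muscle-type energy genes were lower. Ckm, Ckmt2, Mb and Ak1 were each at least 2-fold lower than in non-infarcted ventricle in both genotypes, by 2.27-fold to 5.04-fold. Slc6a8 was lower by less, Ckb and Gatm were level or somewhat higher, and Gamt could not be told from level. In the libraries labelled Neil3-/-, Ckm stood 5.04-fold apart between the regions, against 2.84-fold in wild type.

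**Figure D1:**
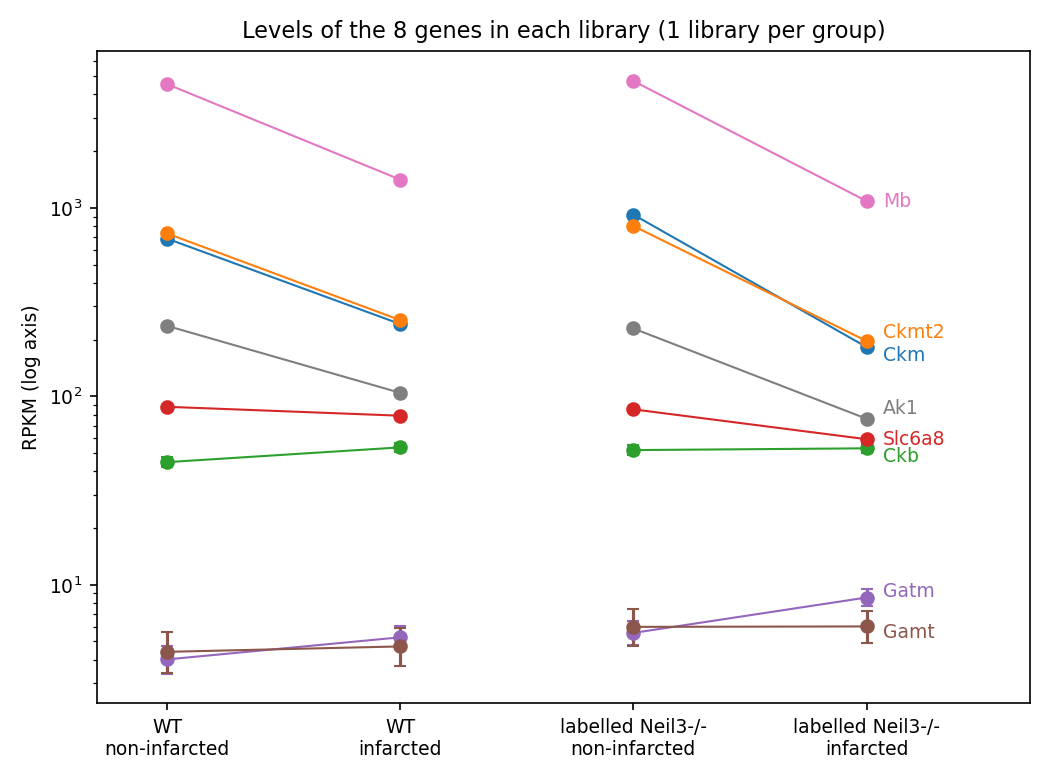
RPKM (log axis) of each of the 8 genes in the 4 libraries, 1 point per library joined by lines for each gene. Mb lies highest throughout, at 1087 to 4715 RPKM, and Ckm, Ckmt2, Mb and Ak1 are lower in both infarcted libraries than in both non-infarcted ones.

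Muscle creatine kinase Ckm (Entrez gene 12715) was at 687 RPKM in the wild-type non-infarcted library, 242 in the wild-type infarcted one, 921 in the non-infarcted library labelled Neil3-/- and 183 in the infarcted one, from 14488, 5909, 18625 and 4703 reads. Both infarcted libraries lay below both non-infarcted ones, and the extremes of the 4 values were both in the libraries labelled Neil3-/-. The infarcted level was 2.84-fold lower in wild type (2.76 to 2.93) and 5.04-fold lower in the libraries labelled Neil3-/- (4.88 to 5.21). In bulk tissue, fewer cells of a type and less RNA per cell cannot be told apart, here and in all that follows. Ckm ranked 53 and 35 among all genes by RPKM in the non-infarcted libraries and 252 and 333 in the infarcted ones. Its reads covered 99.5% to 99.9% of the gene model.

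Ckmt2 (Entrez gene 76722), the mitochondrial partner of Ckm, was at 732, 254, 802 and 197 RPKM in the same order of libraries, from 16529, 6638, 17378 and 5425 reads. Both infarcted libraries again lay below both non-infarcted ones, with 1 library per group. Its infarcted level was 2.89-fold lower in wild type (2.80 to 2.97) and 4.08-fold lower in the libraries labelled Neil3-/- (3.96 to 4.21). Per length, Ckm and Ckmt2 were thus close to equal, with a ratio of Ckm to Ckmt2 of 0.939 (0.918 to 0.960) and 0.954 (0.921 to 0.988) in the wild-type non-infarcted and infarcted libraries. In the libraries labelled Neil3-/- the ratio was 1.15 (1.12 to 1.17) in non-infarcted and 0.929 (0.893 to 0.966) in infarcted tissue. The non-infarcted library labelled Neil3-/- was the only one of the 4 with more Ckm than Ckmt2.

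Brain-type creatine kinase Ckb (Entrez gene 12709), the cytosolic isoform of many non-muscle tissues, had 44.7 RPKM (42.0 to 47.6) in wild-type non-infarcted, 53.6 in wild-type infarcted (50.8 to 56.5), 51.8 in labelled Neil3-/- non-infarcted (48.8 to 55.0) and 53.0 in labelled Neil3-/- infarcted ventricle (50.3 to 55.8). The wild-type non-infarcted library was the low one, and the intervals of the other 3 overlapped. Infarcted tissue was 1.20-fold higher in wild type (1.10 to 1.30), while in the libraries labelled Neil3-/- the ratio of 1.02 had an interval that includes 1 (0.944 to 1.11). Both ratios depended on the scaling of the libraries. On the log2(RPKM + 1) scale the wild-type ratio of 0.25 became 0.04 with TMM factors and 0.03 with median-of-ratios factors, and the ratio of 0.03 in the libraries labelled Neil3-/- changed sign, to -0.20 and -0.22.

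Summed over Ckm, Ckmt2, Ckb and Ckmt1, creatine kinase stood at 1464 RPKM in wild-type non-infarcted, 549 in wild-type infarcted, 1775 in labelled Neil3-/- non-infarcted and 432 in labelled Neil3-/- infarcted tissue. The sum was 2.67-fold lower in wild-type and 4.11-fold lower in labelled Neil3-/- infarcted tissue than in its non-infarcted counterpart. Since Ckb did not follow, its share of the sum was 3.06% and 2.92% in the non-infarcted libraries and 9.76% and 12.3% in the infarcted ones. As a share of reads, not per length, Ckb made up 3.08% (2.89 to 3.27), 9.82% (9.33 to 10.3), 2.95% (2.78 to 3.13) and 12.3% (11.7 to 12.9) in the same order of libraries, by exact Clopper-Pearson intervals. The ratio of Ckm to Ckb was 15.4 and 17.8 in the non-infarcted libraries and 4.52 and 3.45 in the infarcted ones. Ckmt1 gave 2, 0, 2 and 1 reads, at or under a floor of 3 reads per library, and no fold is given for it.

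**Figure D2:**
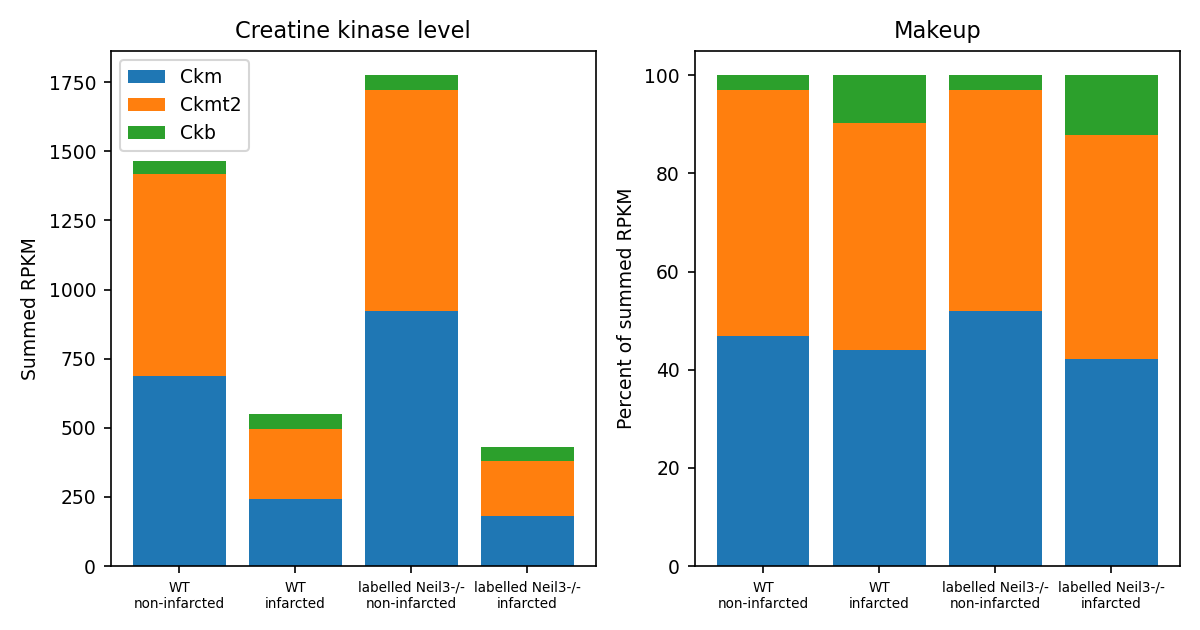
Left, RPKM of Ckm, Ckmt2 and Ckb stacked for each library; right, the percent of the summed creatine kinase RPKM held by each gene. The stacks are lower in both infarcted libraries (549 and 432 RPKM), where the share of Ckb is 9.76% and 12.3%.

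Creatine supply moved less. The transporter Slc6a8 (Entrez gene 102857), which brings creatine into the cell, had 88.0 RPKM without and 78.9 RPKM with infarction in wild type, and 85.3 and 59.2 RPKM in the corresponding libraries labelled Neil3-/-. The infarcted library labelled Neil3-/- was the low one, and the other 3 lay close together. Infarcted tissue was 1.12-fold lower in wild type (1.07 to 1.16) and 1.44-fold lower in the libraries labelled Neil3-/- (1.38 to 1.5). These sizes depended on the scaling of the libraries. On the log2(RPKM + 1) scale the Slc6a8 ratios of -0.16 and -0.52 became -0.38 and -0.75 with TMM factors.

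Gatm (Entrez gene 67092), the amidinotransferase of the first step of creatine synthesis, had 4.02 RPKM (3.38 to 4.74) in wild-type non-infarcted, 5.26 (4.58 to 6.01) in wild-type infarcted, 5.55 (4.78 to 6.41) in labelled Neil3-/- non-infarcted and 8.55 (7.70 to 9.48) in labelled Neil3-/- infarcted tissue. The infarcted library labelled Neil3-/- was the highest, with an interval clear of the other 3. Infarcted tissue was 1.31-fold higher in wild type (1.05 to 1.63) and 1.54-fold higher in the libraries labelled Neil3-/- (1.29 to 1.85). On the log2(RPKM + 1) scale the Gatm ratios of 0.32 and 0.54 became 0.14 and 0.34 with TMM factors. Gamt (Entrez gene 14431), the methyltransferase of the next step, was at 4.41 (3.39 to 5.64), 4.71 (3.72 to 5.87), 5.98 (4.75 to 7.42) and 6.01 RPKM (4.92 to 7.27) in the same order of libraries. With 63 to 105 reads per library, no infarct difference in Gamt was detectable at this depth: the ratios were 1.07 (0.757 to 1.51) and 1.01 (0.746 to 1.36), and both changed sign with TMM or median-of-ratios scaling. Of 6 genes fixed as creatine supply, 0 were at least 2-fold higher or lower in either genotype. Over all genes at 1 RPKM or more, 6.21% were that much higher and 3.60% lower in wild type. In the libraries labelled Neil3-/- the shares were 8.20% and 6.07%, so 0 of 6 does not set this list apart. The furthest of the 6 was Ahcy, which clears the methyl donor's by-product, at 19.0, 28.1, 18.0 and 30.1 RPKM, or 1.48-fold and 1.68-fold higher in infarcted tissue.

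Mb (Entrez gene 17189) was the most abundant member, with 4539 RPKM in wild-type non-infarcted, 1413 in wild-type infarcted, 4715 in labelled Neil3-/- non-infarcted and 1087 in labelled Neil3-/- infarcted tissue. It ranked 4 among all genes in both non-infarcted libraries, and 17 and 26 in the wild-type and labelled Neil3-/- infarcted ones. Infarcted tissue was 3.21-fold lower in wild type (3.17 to 3.26) and 4.34-fold lower in the libraries labelled Neil3-/- (4.27 to 4.40). These intervals are narrow because Mb gave 22175 to 75796 reads per library. In wild type Mb was the member with the infarct ratio furthest from level, and in the libraries labelled Neil3-/- Ckm was.

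The haemoglobin genes did not share this direction. Of 5 globin genes compared, 1 (Mb) was at least 2-fold lower in each genotype and 1 (Hba-a1) was 2-fold higher in the libraries labelled Neil3-/-, and the median log2(RPKM + 1) ratio of the list was 0.87 for wild type and 0.63 for the libraries labelled Neil3-/-. Hba-a1, an alpha chain of haemoglobin, had 86.0 RPKM without and 163 RPKM with infarction in wild type, and 67.6 and 145 RPKM in the libraries labelled Neil3-/-. Hba-a1 and Hba-a2 are near-identical copies, so how reads were split between them is uncertain. Cytoglobin (Cygb), a globin of fibroblast-like cells, was slightly lower in infarcted tissue, at 38.9, 35.6, 39.0 and 35.6 RPKM in the same order of libraries.

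Ak1 (Entrez gene 11636), the cytosolic adenylate kinase of muscle, had 237 RPKM in wild-type non-infarcted, 104 in wild-type infarcted, 229 in labelled Neil3-/- non-infarcted and 76.0 in labelled Neil3-/- infarcted tissue. The non-infarcted libraries were close to each other and both infarcted ones lay well below. Infarcted tissue was 2.27-fold lower in wild type (2.18 to 2.36) and 3.02-fold lower in the libraries labelled Neil3-/- (2.89 to 3.15).

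Of Ak1, Ak3 and Ak4, only Ak1 was at least 2-fold lower in each genotype and 0 of 3 were at least 2-fold higher. Ak3, the matrix enzyme that uses GTP, was at 50.5, 40.6, 56.4 and 43.1 RPKM in the same order of libraries, 1.24-fold (1.17 to 1.32) and 1.31-fold (1.23 to 1.39) lower. Ak4, its matrix relative, was at 6.64, 8.69, 7.43 and 4.93 RPKM, the only one of the 3 with opposite directions. It was 1.31-fold higher in wild-type infarcted tissue (1.17 to 1.47) and 1.51-fold lower in that labelled Neil3-/- (1.33 to 1.71). Ak5, Ak7 and Ak8 stayed under 1 RPKM in every library, and Ak6 and Ak9 were not found.

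**Figure D3:**
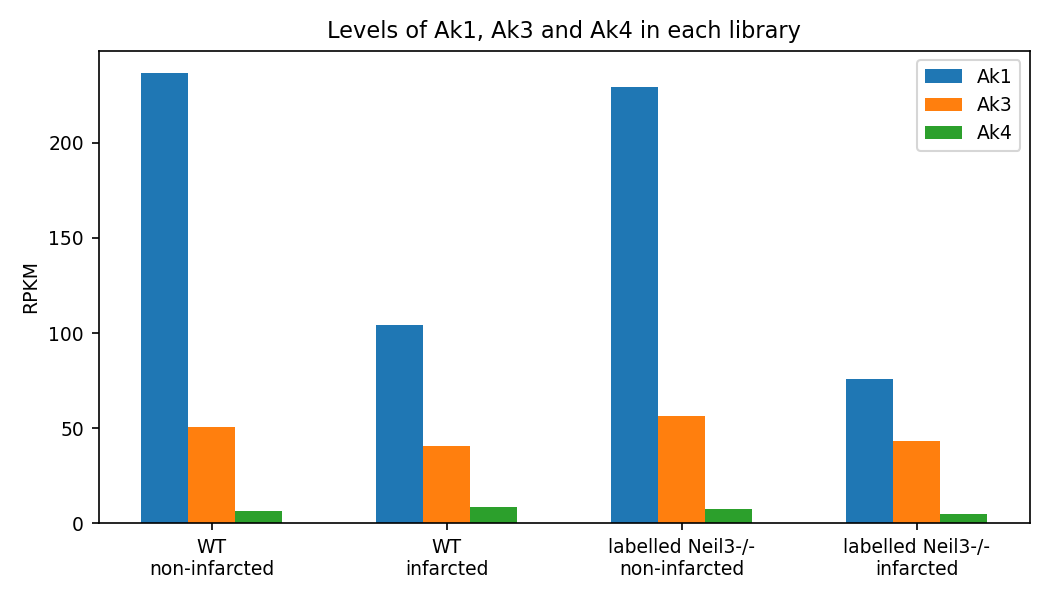
RPKM of the adenylate kinase genes Ak1, Ak3 and Ak4, as bars for each library. Ak1 stands at 237 and 229 RPKM in the non-infarcted libraries and at 104 and 76.0 RPKM in the infarcted ones, while Ak3 stays between 40.6 and 56.4 RPKM in all 4.

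Counted on the log2(RPKM + 1) scale, 4 of the 8 members were at least 2-fold lower in infarcted tissue of each genotype, and 0 of 8 were higher by that much. Over all genes at 1 RPKM or more, 3.60% of 12515 were at least 2-fold lower in wild type, and 6.07% of 12563 for the libraries labelled Neil3-/-, and 6.21% and 8.20% were higher by that much. The median ratio of the members was -0.66 for wild type and -1.05 for the libraries labelled Neil3-/-, beside 0.21 and 0.24 for all genes. TMM scaling moved the all-gene medians by -0.19 and -0.20. Relative to the all-gene median, the ratios were -1.71 and -2.57 for Ckm, -1.74 and -2.26 for Ckmt2, -1.89 and -2.35 for Mb and -1.38 and -1.82 for Ak1. Those of Slc6a8 were -0.37 and -0.76, and those of Ckb 0.04 and -0.21.

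**Figure D4:**
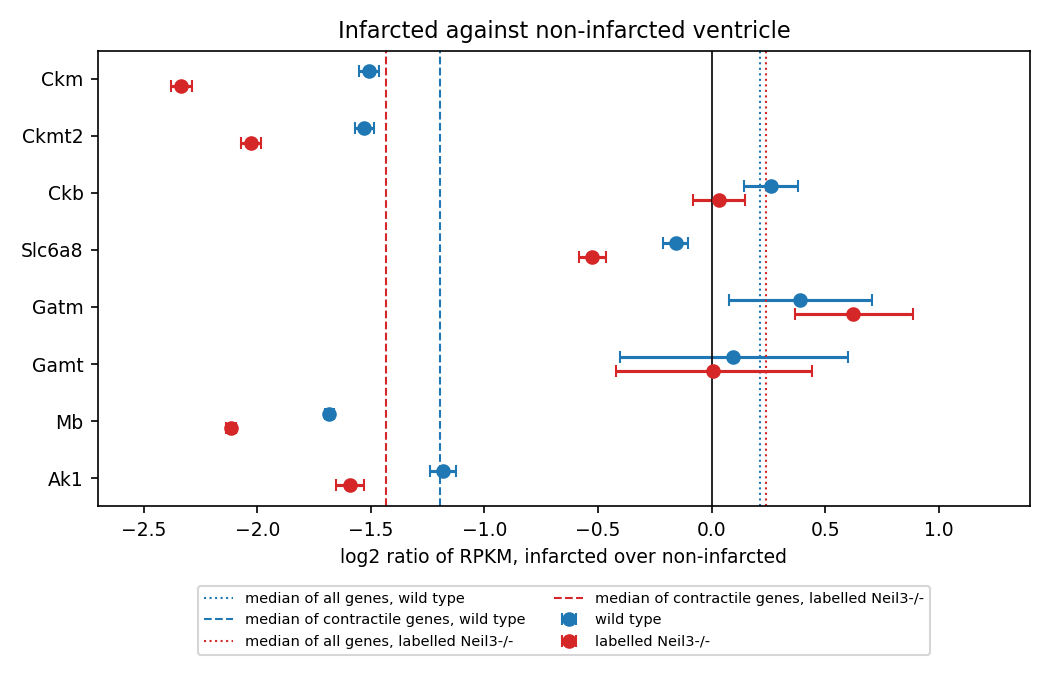
log2 ratio of RPKM, infarcted over non-infarcted, for each member and genotype label, with 95% counting intervals. Dotted and dashed lines mark the medians of all genes (0.21 and 0.24) and of 12 contractile genes (-1.20 and -1.44) on the log2(RPKM + 1) scale; Ckm, Ckmt2 and Mb lie to the left of the contractile medians in both genotypes.

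Markers of the cell types in the tissue moved with the same comparison. The 12 contractile genes had a median ratio of -1.20 in wild type, with 8 of 12 at least 2-fold lower, and of -1.44 in the libraries labelled Neil3-/-, with 12 of 12. The 7 calcium-handling genes of cardiomyocytes, such as Pln and Atp2a2, had medians of -1.28 and -1.65, with 6 of 7 at least 2-fold lower in each genotype. Summed RPKM of 5 neutrophil markers was 27.7 and 24.5 in non-infarcted and 210 and 246 in infarcted tissue, wild type first, and that of 8 macrophage and monocyte markers was 386 and 649 against 1060 and 1462. For 8 fibroblast markers the sums were 2556 and 3108 against 4102 and 5723, and for 4 smooth muscle markers 261 and 305 against 481 and 652. Some fibroblast markers went the other way, 3 of 8 in wild type and 1 of 8 in the libraries labelled Neil3-/-. The smooth muscle marker Myh11 was also lower in infarcted tissue. It went from 10.8 to 6.05 RPKM in wild type and from 10.1 to 6.79 RPKM in the libraries labelled Neil3-/-. Atrial markers had medians of -3.73 and -2.03, with 3 of 4 at least 2-fold lower in infarcted tissue of each genotype. The other 1, Nppa, was higher there, at 1715 and 2498 RPKM in wild type and 1228 and 1805 RPKM in the libraries labelled Neil3-/-. The part of these cell types in the members' ratios was not tested.

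Set beside the contractile median, Ckm, Ckmt2 and Mb were lower, Ak1 was near it and the remaining members were higher. Ckm lay 0.30 log2 units below the contractile median in wild type, Ckmt2 0.33 and Mb 0.49 below. In the libraries labelled Neil3-/- these distances were 0.89, 0.59 and 0.68. Ak1 stood at 0.02 from it in wild type and at -0.14 in the libraries labelled Neil3-/-, which turned to 0.07 when the calcium-handling genes were the reference. Ckb, Slc6a8, Gatm and Gamt lay above each of the 12 contractile genes in both genotypes, Slc6a8 by 1.04 and 0.92 from the median and Ckb by 1.45 and 1.47. Only 1 contractile gene, Tcap, had a lower ratio than Ckm in each genotype. In wild type 1 of 12 was also lower than Ckmt2 and than Mb. In the libraries labelled Neil3-/- 5 of 12 were lower than Ckmt2 and 3 of 12 lower than Mb, so both lay within the contractile range. From the calcium-handling median, Ckm, Ckmt2 and Mb stood at -0.22, -0.24 and -0.40 in wild type. In the libraries labelled Neil3-/- they stood at -0.68, -0.37 and -0.47 from it.

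Between the non-infarcted libraries, Ckm differed most among the members with narrow intervals. It was 1.34-fold higher in the library labelled Neil3-/- than in wild type (1.31 to 1.37), Ckmt2 was 1.10-fold higher (1.07 to 1.12) and Mb 1.04-fold higher (1.03 to 1.05). Ckb was 1.16-fold higher (1.06 to 1.26) and Gatm, from fewer reads, 1.38-fold higher (1.10 to 1.73). The intervals of Slc6a8 at 0.969 (0.932 to 1.01) and Gamt at 1.36 (0.965 to 1.92) include 1, and that of Ak1 at 0.969 reaches from 0.937 to 1.0. None of the 8 members was 2-fold apart in either direction, where 0.254% of 12226 genes stood at least 2-fold above wild type and 0.188% as far below. The members' median was 0.17 and the all-gene median 0.01.

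The contractile genes did not share the higher level of Ckm between these libraries: their median was -0.09 with 10 of 12 below 0. The calcium-handling genes were mixed, with a median of -0.09, 4 of 7 below 0 and 3 above. Among the latter, Hrc was at 183 RPKM in wild type and 219 RPKM in the library labelled Neil3-/-, and Atp2a2 at 1650 and 1909 RPKM. Atrial markers differed between the same libraries, with a median of -1.69 and 3 of 4 at least 2-fold lower in the library labelled Neil3-/-, and the macrophage and monocyte median was 0.42. Skeletal muscle also expresses Ckm strongly. Of 8 markers of fast skeletal muscle 7 were found. Their summed RPKM was 5.18 and 6.48 in the non-infarcted and 6.25 and 10.3 in the infarcted libraries, wild type first. Tnni2, a troponin of fast muscle, was at 1.11, 1.30, 2.52 and 3.05 RPKM in the usual order of libraries, from 11, 15, 24 and 37 reads. Tnnt3, another, was at 2.85, 3.92, 2.84 and 5.85 RPKM, from 47, 75, 45 and 118 reads. Between the non-infarcted libraries the sums thus parted through the few reads of Tnni2, while Tnnt3 was level. Of the fast myosins, Myh1 gave 4 reads in wild-type non-infarcted tissue and 0 in the other 3 libraries, Myh4 gave 1 read in wild-type infarcted tissue and 0 elsewhere, and Myh2 was not found. The part of the atrial, macrophage and skeletal muscle markers in the Ckm ratio was not tested.

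Between the infarcted libraries, the muscle-type members and the transporter were all lower in the one labelled Neil3-/-, by similar ratios. Ckm was 1.32-fold lower (1.27 to 1.38), Ckmt2 1.29-fold (1.24 to 1.34), Mb 1.30-fold (1.28 to 1.32), Slc6a8 1.33-fold (1.28 to 1.39) and Ak1 1.37-fold (1.31 to 1.44). Ckb was level, with a ratio of 0.989 (0.917 to 1.07), and Gatm was 1.63-fold higher (1.37 to 1.93). Gamt, at 1.28, had an interval that includes 1 (0.943 to 1.73). Here too 0 of 8 members were 2-fold apart, where 0.249% of 12464 genes stood at least 2-fold above wild type and 0.241% as far below. The members' median was -0.37 and the all-gene median 0.02. The contractile genes moved with this comparison, with 12 of 12 below 0 and a median of -0.62, and the fibroblast markers had a median of 0.61 with 8 of 8 above 0. The calcium-handling genes had a median of -0.31 with 7 of 7 below 0. Where the members stood depended on the reference. Ckm, Ckmt2, Mb, Slc6a8 and Ak1 lay above the contractile median. From the calcium-handling median they stood at -0.09, -0.05, -0.07, -0.10 and -0.14. The part of these marker genes in the members' ratios was not tested.

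**Figure D5:**
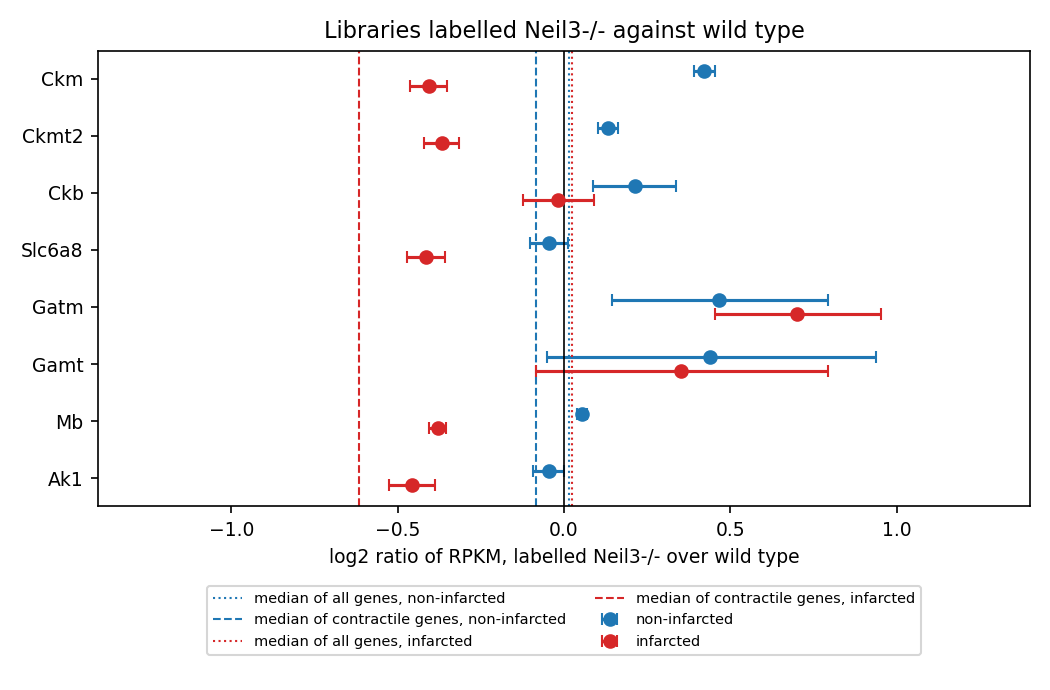
log2 ratio of RPKM, labelled Neil3-/- over wild type, for each member in non-infarcted and in infarcted tissue, with 95% counting intervals, and the medians of all genes and of contractile genes on the log2(RPKM + 1) scale as dotted and dashed lines. In infarcted tissue Ckm, Ckmt2, Slc6a8, Mb and Ak1 lie left of 0 and right of the contractile median of -0.62, and Gatm lies right of 0 in both tissues. The calcium-handling median of -0.31 is not drawn, and Ckm, Ckmt2, Slc6a8, Mb and Ak1 lie left of it.

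The infarct ratio was further from level in the libraries labelled Neil3-/- than in wild type for Ckm, Ckmt2, Mb, Ak1 and Slc6a8, most of all for Ckm. The difference of the log2 RPKM ratios, labelled Neil3-/- minus wild type, was -0.83 for Ckm (-0.89 to -0.76), a further 1.78-fold. Only 56 of 12716 genes had a difference as low as that, or 0.440%. It was -0.50 for Ckmt2 (-0.56 to -0.44), -0.43 for Mb (-0.46 to -0.40), -0.41 for Ak1 (-0.50 to -0.33) and -0.37 for Slc6a8 (-0.45 to -0.29). For Ckb it was -0.23 (-0.39 to -0.07), and for Gatm (-0.16 to 0.63) and Gamt (-0.72 to 0.55) the interval includes 0. On the log2(RPKM + 1) scale, the same difference was -0.52 at the median of the 12 contractile genes, with a range of -0.71 to -0.11. Ckm was lower than each of them, and Ckmt2, Mb and Ak1 fell inside their range. For the 7 calcium-handling genes the median was -0.36, with a range of -0.45 to -0.12. Ckm and Ckmt2 were lower than each of those, and Mb and Ak1 fell inside that range. The genotype and infarct comparisons share libraries, so the Ckm value of the non-infarcted library labelled Neil3-/- enters both its infarct ratio and the 1.34-fold genotype ratio.

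ATP export and AMP sensing, the steps next to these kinases, were read from lists of named genes. Of 6 ATP export genes, 1 was at least 2-fold lower in wild type and 3 were in the libraries labelled Neil3-/-, 0 were at least 2-fold higher, and the medians were -0.67 and -0.84. Over all genes, 3.60% and 6.07% were that much lower and 6.21% and 8.20% higher, wild type first. The muscle isoform of the ADP/ATP carrier, Slc25a4, was at 2594, 1110, 2332 and 694 RPKM in the same order of libraries, 2.34-fold and 3.36-fold lower in infarcted tissue. The phosphate carrier Slc25a3 was at 735, 385, 690 and 315 RPKM, and the outer membrane channel Vdac1 at 385, 220, 389 and 191 RPKM. Slc25a5, the carrier isoform of non-muscle tissues, had ratios of 1.06 and 1.01. The pair of carriers parted by isoform in the same direction as Ckm and Ckb did. Slc25a5 was picked after its values were seen, so this likeness is a description only.

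The 7 subunit genes of the AMP-activated kinase had medians of -0.16 and -0.21, with 0 of 7 at least 2-fold apart in wild type and 1 lower in the libraries labelled Neil3-/-. Beside all-gene shares of 3.60% and 6.07% lower and 6.21% and 8.20% higher, these counts do not set the list apart. The 1 lower gene was Prkaa2, the catalytic subunit abundant in muscle, at 32.9, 17.8, 29.0 and 12.5 RPKM. Prkaa1, the other catalytic subunit, was higher in infarcted tissue, at 9.33 and 14.1 RPKM in wild type and at 8.42 and 15.8 RPKM in the libraries labelled Neil3-/-. Prkab2, a scaffold subunit, was at 16.9, 24.9, 18.4 and 24.4 RPKM.

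Purine nucleotide genes went both ways: of 12 compared, 3 were at least 2-fold higher and 1 lower in wild type, and 3 higher and 2 lower in the libraries labelled Neil3-/-, with medians of 0.26 and 0.13. Nt5c1a, a cytosolic nucleotidase that makes adenosine from AMP, was at 14.6, 5.36, 16.4 and 5.33 RPKM, 2.73-fold (2.15 to 3.47) and 3.08-fold (2.45 to 3.90) lower in infarcted tissue. Adss, a synthase of the route from IMP to AMP, was at 9.34, 21.1, 10.4 and 26.3 RPKM. Pnp, which cleaves inosine and guanosine, was at 9.70, 22.0, 11.3 and 26.1 RPKM. Both were thus more than 2-fold higher in infarcted tissue of each genotype.

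For 7 of the members, the genes nearest in profile were found among 9309 genes at 5 RPKM or more by the distance between centred log2(RPKM + 1) values, which rests on only 4 libraries. This distance is not scaled to the size of a profile's changes, so distances of different members are not directly comparable. Nearest to Ckm was Fitm1, which acts in lipid droplet formation, at a distance of 0.159 log2 units and with 55.4, 17.2, 70.6 and 11.9 RPKM. Slc38a3 followed at 0.168, with 27.8, 8.88, 33.0 and 6.89 RPKM, and both genes ordered the libraries as Ckm did. Nearest to Ckmt2 were Ephx2 at 0.056, Coq10a at 0.067 and Adck3 at 0.074. For Mb the nearest were the fatty acid oxidation enzyme Eci1 at 0.089 and the fatty acid binding protein Fabp3 at 0.098, the latter with 2987, 933, 3344 and 761 RPKM. Gatm was nearest to the collagen gene Col14a1 at 0.126, with 13.5, 18.5, 20.4 and 28.9 RPKM. Ckb was nearest to Zfp180 at 0.021, Slc6a8 to Jmjd4 at 0.037 and Gamt to Rbbp9 at 0.018, and for these flat profiles a small distance says little.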

How the data were processed

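The deposited count of reads per gene, per the file headers, is of uniquely assigned reads, and genes without a read are not listed, so they were taken as 0. The deposited RPKM values equal these reads divided by the listed length and the library's total. The authors' coverage column, in percent, was used to describe members. The genome build is mm9, per the submitters' processing notes; how reads were aligned and counted was not given in the sources used here.

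Levels were compared as ratios of RPKM with exact Clopper-Pearson 95% intervals on the reads of both libraries, and counts of genes were made on log2(RPKM + 1) at 2-fold, for genes that reached 1 RPKM in either library. Each comparison is between single libraries, so no test was run. A model with additive region and genotype terms, with 1 residual degree of freedom, was left out. Reads without molecular identifiers are not independent molecules, so intervals and the floor of 3 reads cover counting error only. Alternatives were TMM factors (edgeR 4.0.16), median-of-ratios factors, a total without ribosomal and small noncoding RNA, other pseudocounts, filters and folds, the calcium-handling reference and shares of reads. The 2-fold calls and the intervals were tested on simulated data with counting noise only. Python 3.11.15, pandas 2.3.3 and scipy 1.17.1 were used.

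The members and the 7 pathway and 11 marker lists were chosen with earlier results of these data known. Named genes are the 8 members, up to 3 genes per pathway list with the largest absolute mean infarct ratio, other adenylate kinases, Ckmt1, and the 3 nearest profiles of each member, of which some are given, while a few results are not reported here; Slc25a5, Cygb, Tcap, Tnni2, Tnnt3 and marker examples were chosen after their values were seen. Further marker lists had these median infarct ratios, wild type first: endothelial 0.65 and 0.63, erythrocyte 0.88 and 0.61, and Schwann and neuronal 0.82 and 0.98.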

Additional observations from a re-analysis of the deposited data

Results flagged for a closer look

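For 4 members, the library labelled Neil3-/- was above wild type in non-infarcted tissue and below it in infarcted tissue, so that the genotype ratio pointed in opposite directions. With 1 library per group this difference was not tested, and a ratio close to 1 counts as a direction here. Ckm went from a ratio of 1.34 to 0.755, a difference of -0.83 on the log2 RPKM scale. Ckmt2 went from 1.10 to 0.775, a difference of -0.50. Mb went from 1.04 to 0.769, a difference of -0.43. Ckb went from 1.16 to 0.989, a difference of -0.23, and the interval of its infarcted ratio includes 1.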

How the results depend on the processing

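The count of members at least 2-fold lower in infarcted tissue was 4 in each genotype under every alternative run. Counts over all genes depended more on the setting. In wild-type infarcted tissue, 777 genes were higher and 450 lower: with TMM scaling 455 and 769, with median-of-ratios scaling 447 and 781, and at 1.5-fold 2698 and 1196, while 1262 were higher with a pseudocount of 0.1 and 1340 with none. In the libraries labelled Neil3-/-, 1030 were higher and 762 lower, and at 1.5-fold 3146 and 1557. There 549 were higher with TMM scaling, 516 with median-of-ratios scaling, 1578 with a pseudocount of 0.1 and 1641 with none. The share of higher genes went from 63.3% to 37.2% and 36.4% in wild type, and from 57.5% to 34.1% and 31.9% in the libraries labelled Neil3-/-, with TMM and median-of-ratios scaling. Between genotypes in non-infarcted tissue, 31 were higher and 23 lower: 70 and 48 with a pseudocount of 0.1, 89 and 58 with none, 16 and 9 at 5 RPKM or more, and 139 and 75 at 1.5-fold. Between genotypes in infarcted tissue, 31 were higher and 30 lower: 70 and 71 with a pseudocount of 0.1, 84 and 84 with none, 18 and 14 at 5 RPKM or more, and 188 and 193 at 1.5-fold, where 1 member, Gatm, was higher. The cause was not tested beyond what each setting changes by construction.

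No paired analysis was possible because each group has 1 library and the labels give no replicate numbers, and for the same reason none was left out. Gatm, Gamt and Ckmt1 are limited by depth, with 63 to 367 reads for the first 2 and at most 2 for Ckmt1.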
